A study of Rattus norvegicus with 9 samples.

Results

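The genes described here are the cytosolic ribosomal protein genes of the rat uterus, 48 of the 14217 genes that carry a single symbol on the Affymetrix rat array used. They were taken by name: every platform symbol of Rpl, Rps or Rplp with a number and an optional paralog suffix, and Rpsa, without S6 kinases, pseudogenes and mitochondrial ribosomal proteins. Of the 48, 33 name the large ribosomal subunit and 15 the small one. For 43 of them, 28 large and 15 small, the probe set with the highest mean passed a filter on dim values and was among the 10973 genes tested. The filter asked for a value no lower than the 40th percentile of the array, on 3 or more of the 9 arrays.

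The 9 arrays hold uterus RNA from female rats in 3 groups. Treatment rats (arrays 31, 32 and 33) received electroacupuncture, 15 min a session, on the acupoints Guanyuan and Sanyinjiao for 7 days, and then ovulation induction during which the sessions went on. Model rats (21, 22 and 23) had the induction alone, which was 0.5 U of PMSG for each rat (pregnant mare serum gonadotropin, a hormone that drives follicle growth) followed after 48 h by the same amount of human chorionic gonadotropin, which triggers ovulation. Control rats (41, 42 and 43) were untreated, and no stage of their oestrous cycle is given. There were 18 rats, 6 per group, and it is not stated whether arrays stand for separate animals, so p-values measure the spread between arrays. No strain or age is stated in the labels.

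Ribosomes make the proteins of the cell, and ribosomal protein genes supply the protein part of both subunits in matched amounts. Their mRNAs are known for a terminal oligopyrimidine tract, a C at the first base followed by a run of C and T, through which mTOR signalling and the RNA-binding protein Larp1 control how much of the mRNA is translated. The amount of such an mRNA therefore need not follow the amount of protein made from it. In the rodent uterus, oestrogen is known to raise ribosome production and protein synthesis.

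The start of the transcript is shown for several members because this tract is the feature the family is known for. Starts were read from RefSeq (rat assembly GRCr8), 15 bases before and 15 from the annotated first base on. Capitals mark a C at the first base with the C and T that follow without a break, where at least 4 follow.
Rpl19 (chr10:83519049-83519078, + strand): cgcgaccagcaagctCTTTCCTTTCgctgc
Rpl35 (chr3:43165907-43165936, - strand): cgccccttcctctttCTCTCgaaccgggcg
Rpl35a (chr11:81235007-81235036, - strand): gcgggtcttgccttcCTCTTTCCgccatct
Rpl37a (chr9:81748076-81748105, + strand): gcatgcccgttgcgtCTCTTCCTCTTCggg
Rplp0 (chr12:46718376-46718405, - strand): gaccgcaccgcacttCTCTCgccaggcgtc
Rps15 (chr7:10068101-10068130, - strand): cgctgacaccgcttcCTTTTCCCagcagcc
Rps3a (chr2:173827028-173827057, - strand): gagttgtacttccgcCCTTTTggctctcag
Rpl12 (chr3:36661925-36661954, + strand): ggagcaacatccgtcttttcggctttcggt
Rps27l (chr8:76443643-76443672, + strand): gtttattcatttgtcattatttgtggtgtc
The first 7 carry the tract exactly at the annotated start. In Rpl12 the C lies 1 base upstream of it, and in Rps27l, the paralog of Rps27, no such tract begins within 10 bases. RefSeq starts were found for 43 of the 48 members (not the same 43 as those tested).

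A tract of C and at least 4 following C or T began at the annotated start, on the gene's own strand, in 12 of these 43 members (27.9%) and in 2.63% of the 27457 genes in the table. Within 10 bases of the start, such a tract began in 29 of the 43 (67.4%), against 28.8% of all genes. A start annotated a few bases off hides the tract, so its absence at the first base says only that these letters were not found there.

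The ribosomal protein genes gave bright and steady signals. Of the 43 tested, 36 lay in the brightest 1% of probe sets on all 9 arrays, 2 on some of them and 5 on none. The scale is log2(intensity + 16) throughout. For the 38 bright members the means over the 9 arrays were 10.19 to 12.21, from Rpl21, a large-subunit protein, to Rps29, a small zinc-binding protein of the small subunit. Probe sets differ in efficiency, so these values do not rank the genes by amount of mRNA.

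The spread of these genes was small. Their median residual SD over the 3 groups was 0.10, against 0.15 over all genes tested, and the range over the 9 arrays had a median of 0.32, against 0.51. Rps29 was the steadiest, at 12.20, 12.12 and 12.15 in treatment arrays, 12.23, 12.27 and 12.22 in model arrays and 12.18, 12.24 and 12.24 in control arrays (residual SD 0.034). Rpl37a and Rpl23a followed, at residual SDs of 0.040 and 0.047. At the other end were Rpl14 (0.18), Rpl6 (0.16) and Rps15 (0.14). Rpl14 measured 10.26, 10.03 and 10.27 in treatment arrays, 10.02, 10.47 and 10.49 in model arrays and 10.24, 10.11 and 10.27 in control arrays. Within the model group, array 21 was thus the low one for Rpl14. Whether bright probe sets near the top of the intensity range understate changes was not tested. Other translation genes were also steadier than all genes. The median standard error of a log2 fold change was 0.0939 for the members and 0.1175 for all genes tested. It was 0.1045 for ribosome biogenesis genes and 0.1131 for mitochondrial ribosomal protein genes. The spread of the members was not compared with that of equally bright genes.

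A further 5 members were dim on every array and were not tested. Rpl3l, the paralog of Rpl3 known from skeletal and heart muscle, lay between 4.29 and 4.40 over the 9 arrays, and Rpl39l1 between 4.44 and 4.59. Rpl26l1 ran from 4.79 to 5.02. The single-symbol probe sets of Rpl28 (4.72 to 5.003) and Rpl30 (4.83 to 5.05) were dim as well. Among the tested members, Rps13 (array values 4.88 to 5.20), Rps4y2, Rpl39, Rpl7l1 and Rps27l were the 5 outside the brightest 1% on every array, and the pseudocount of 16 understates changes of the dimmest of them.

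**Figure D1:**
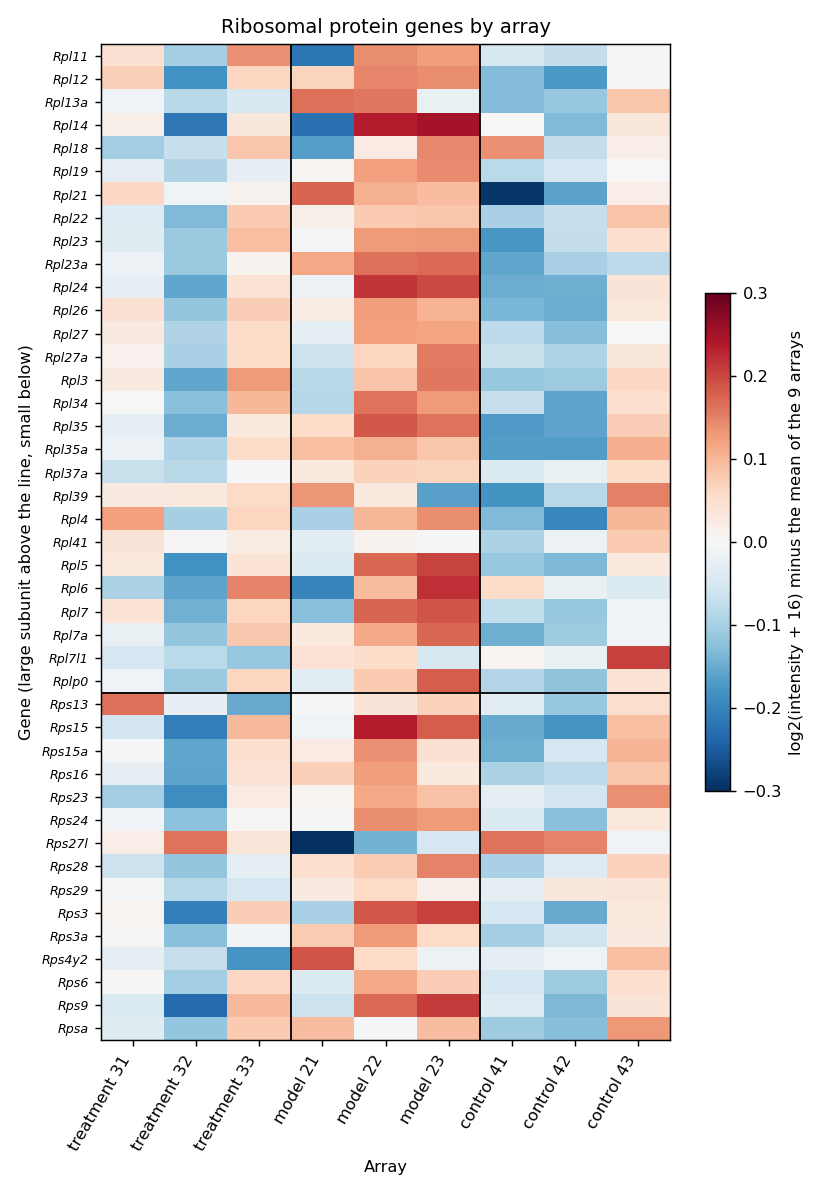
Values of the 43 tested ribosomal protein genes (rows, large subunit above the line and small subunit below) on the 9 arrays (columns), as log2(intensity + 16) minus the gene's mean over the arrays. Most genes are low together on treatment 32 and controls 41 and 42 and high together on models 22 and 23, while Rps27l is high on treatment 32 and controls 41 and 42 and lowest on model 21.

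Across arrays the members deviated together within a narrow band. The mean deviation of the 43 genes from their own 9-array means was -0.004, -0.111 and 0.036 in treatment arrays 31, 32 and 33, -0.011, 0.110 and 0.107 in model arrays 21, 22 and 23, and -0.083, -0.093 and 0.050 in control arrays 41, 42 and 43. From lowest to highest this is 0.22 on the log2 scale, and the 3 groups overlap: model 21 lies below treatment 33 and control 43. The same mean over all genes tested was between -0.055 and 0.040. Over mitochondrial ribosomal protein genes it ran from -0.138 to 0.103. Over ribosome partners, such as protein targeting genes, it ran from -0.177 to 0.131, so a range this wide was not particular to the members. The other translation lists described below were narrower, with no array under -0.096 or over 0.088. The first principal component of the 43 centred genes carried 68.4% of their variance, against 43.1% for all genes tested. Values were centred but not scaled, so genes with larger changes weigh more, and the sets differ in size. These shares are therefore not a like comparison, and no list of similar size and brightness was set beside them.

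Single arrays stood out within groups. Treatment 32 was the lowest treatment array for 37 of the 43 genes, model 21 the lowest model array for 33, and control 43 the highest control array for 40. The Actb 3' to 5' ratio, a measure of RNA quality, was 5.95 to 7.00 in treatment, 5.19 to 6.58 in model and 5.07 to 7.84 in control arrays, with control 43 the highest of the 9. The Gapdh ratio was 1.12 to 1.24 in treatment, 1.14 to 1.39 in model and 1.10 to 1.30 in control arrays, with model 21 highest and control 43 next. The part of these ratios in the ribosomal protein values was not tested. Large and small subunit genes shared the ends of the order but not its middle: treatment 32 had the lowest mean deviation in both (-0.108 and -0.116), and models 22 and 23 the highest ones (0.117 and 0.118 for the large subunit, 0.096 and 0.085 for the small).

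**Figure D2:**
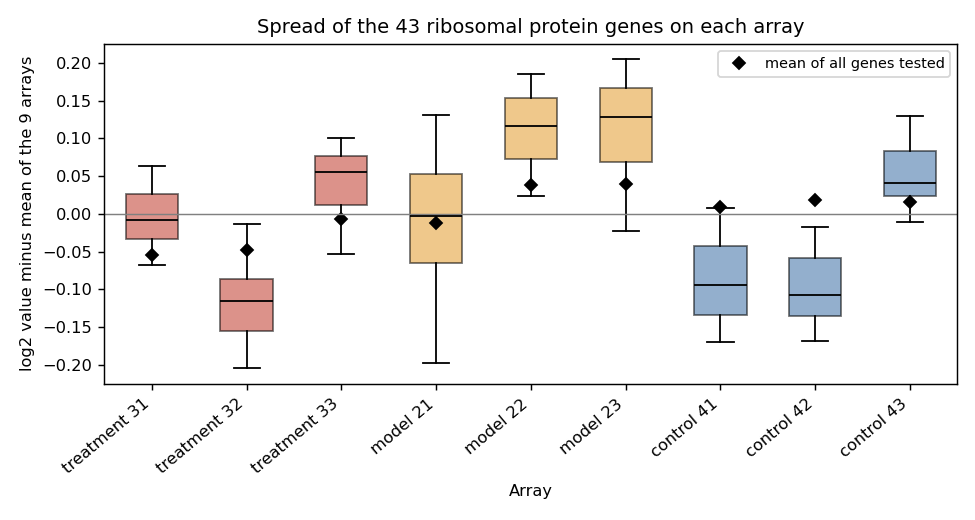
For each array, the spread of the 43 tested ribosomal protein genes as log2(intensity + 16) minus the gene's mean over the 9 arrays (box: quartiles and median, whiskers: 5th to 95th percentile, colours: groups), with the mean of all genes tested as diamonds. The boxes of treatment 32 and controls 41 and 42 lie below 0 and those of models 22 and 23 above it, whereas model 21, treatment 33 and control 43 cross into each other's range.

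Markers of cell types also varied over the arrays, and their agreement with this pattern was not tested. Of 9 endothelial markers 8 passed the filter (all but Cdh5), and their mean deviation was -0.89 to 0.08 in treatment, 0.20 to 0.40 in model and -0.29 to 0.61 in control arrays, with treatment 32 lowest. All 9 stromal markers passed, with -0.54 to 0.13 in treatment, -0.14 to 0.37 in model and -0.55 to 0.52 in control arrays. Of 13 lymphocyte and natural killer cell markers 5 passed (Cd3d, Cd3g and Nkg7 were among those that did not), with -0.43 to -0.05 in treatment, -0.17 to 0.96 in model and -0.23 to 0.03 in control arrays. The 14 epithelial markers that passed had -0.53 to -0.02 in treatment, -0.70 to -0.27 in model and -0.52 to 1.56 in control arrays, with controls 41 and 42 far above control 43. The 12 smooth muscle markers, all of which passed, had -0.05 to 0.23 in treatment, 0.04 to 0.30 in model and -0.75 to -0.06 in control arrays. In model against control, 12 of 12 had positive log2 fold changes (median 0.44), where 53.5% of all genes tested did. In that comparison 14 of 14 epithelial markers were negative (median -0.94) and 5 of 5 lymphocyte and natural killer cell markers positive (median 0.52). The other marker lists held both signs. Of 8 adipocyte markers 5 passed, with -0.21 to -0.13 in treatment, 0.30 to 0.51 in model and -0.43 to -0.06 in control arrays, so that all model arrays lay above all others. Of 10 macrophage markers 9 passed, with -0.59 to -0.12 in treatment, -0.72 to 0.91 in model and -0.37 to 0.50 in control arrays. Their part in the ribosomal protein values was not tested, and in whole tissue more cells of a type and more mRNA per cell cannot be told apart. Of 8 uterine identity markers 7 passed, among them the progesterone receptor gene Pgr, while the probe sets of the oestrogen receptor gene Esr1 did not. The 7 had mean deviations of -0.36 to -0.11 in treatment, -0.02 to 0.37 in model and -0.04 to 0.29 in control arrays. All treatment arrays thus lay below all others, and the part of this in the ribosomal protein values was not tested. Of 15 epithelial markers all but Ovol1 passed, while 8 of 10 ovary and oviduct markers did not.

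The first comparison asked what ovulation induction alone changed. In model against control arrays, 40 of the 43 ribosomal protein genes had positive log2 fold changes (93.0%, against 53.5% of all genes tested), with a median of 0.12 against 0.02 over all genes. By limma with Benjamini-Hochberg adjustment over all 10973 genes, 0 of the 43 passed at an adjusted p under 0.05, where 0.0273% of all genes did (0.00911% higher and 0.0182% lower). At an unadjusted p under 0.05 there were 3 higher and 1 lower, against 6.37% and 6.08% of all genes. Model and control arrays did not overlap for 7 members, 6 of them higher in model arrays (14%, against 7.79% of all genes) and 1 lower (2.33%, against 6.73%). The smallest adjusted p among the members was 0.266.

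Rpl23a, a large-subunit protein at the exit of the nascent chain, had the smallest p. It measured 11.54, 11.59 and 11.60 in model arrays 21, 22 and 23, against 11.27, 11.33 and 11.35 in control arrays 41, 42 and 43. All model arrays were above all control arrays, control 43 included (log2 fold change 0.26, SE 0.07, limma adjusted p = 0.266). Rpl21, another large-subunit protein, had 10.37, 10.30 and 10.28 in model arrays, against 9.90, 10.03 and 10.21 in control arrays. Here too the groups did not overlap, and the spread lay mainly among the controls (log2 fold change 0.27, SE 0.09, limma adjusted p = 0.338).

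Rpl12, a protein at the base of the ribosomal stalk where elongation factors bind, had 11.73, 11.81 and 11.81 in model arrays, against 11.54, 11.49 and 11.66 in control arrays. The model arrays were all higher, by 0.22 on the log2 scale on average (SE 0.09, limma adjusted p = 0.396). Rpl35, which sits at the exit tunnel, averaged 11.46 ± 0.07 in model and 11.24 ± 0.14 in control arrays (SD, n = 3 each), with control 43 at 11.39 above model 21 at 11.38. Rpl7a had 12.17, 12.26 and 12.32 in model arrays, against 11.999, 12.04 and 12.14 in control arrays, so the groups did not overlap (log2 fold change 0.19, limma adjusted p = 0.407). Rpl19 and Rps3a were the other members with all model arrays higher, at log2 fold changes of 0.13 each.

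Rps27l, the paralog of Rps27 that p53 is known to induce in human cells, went the other way. It measured 7.92, 8.10 and 8.20 in model arrays, against 8.41, 8.39 and 8.24 in control arrays. Every model array was lower than every control array (log2 fold change -0.27, SE 0.10, limma adjusted p = 0.355). The paralog Rpl7l1 averaged 7.57 ± 0.06 in model and 7.62 ± 0.12 in control arrays (SD, n = 3 each), and Rpl18 averaged 11.14 ± 0.16 in model and 11.17 ± 0.10 in control arrays. These 3 genes were the only members with negative log2 fold changes in this comparison.

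Several members are also known for roles outside the ribosome. Rps6, the substrate of S6 kinases, averaged 12.12 ± 0.08 in model and 12.03 ± 0.08 in control arrays (SD, n = 3 each). Rpl5, which binds the p53 regulator Mdm2 when free of the ribosome, averaged 11.95 ± 0.13 in model and 11.76 ± 0.09 in control arrays, and Rpl11, which also binds Mdm2, 11.57 ± 0.20 in model and 11.51 ± 0.03 in control arrays. Rplp0, the protein that anchors the stalk and a common reference gene, averaged 11.47 ± 0.11 in model and 11.34 ± 0.09 in control arrays. Rpsa, a small-subunit protein also known as a laminin receptor, averaged 11.02 ± 0.06 in model and 10.92 ± 0.14 in control arrays. In none of these 5 were the groups separate.

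The model values depended on which arrays were in the fit. Without control 43, 1 of the 43 members passed, Rpl21 (log2 fold change 0.35, SE 0.08, limma adjusted p = 0.0367), and 11 had an unadjusted p under 0.05, of which Rps27l alone was lower. Among all genes 1384 passed then in place of 3, which is 12.6%, and 31.2% had an unadjusted p under 0.05. The members' shares, 2.33% and 25.6%, lay below both. The median over the members was 0.17 without control 43 and 0.17 without model 21, and 0.09 to 0.12 without any other single array.

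**Figure D3:**
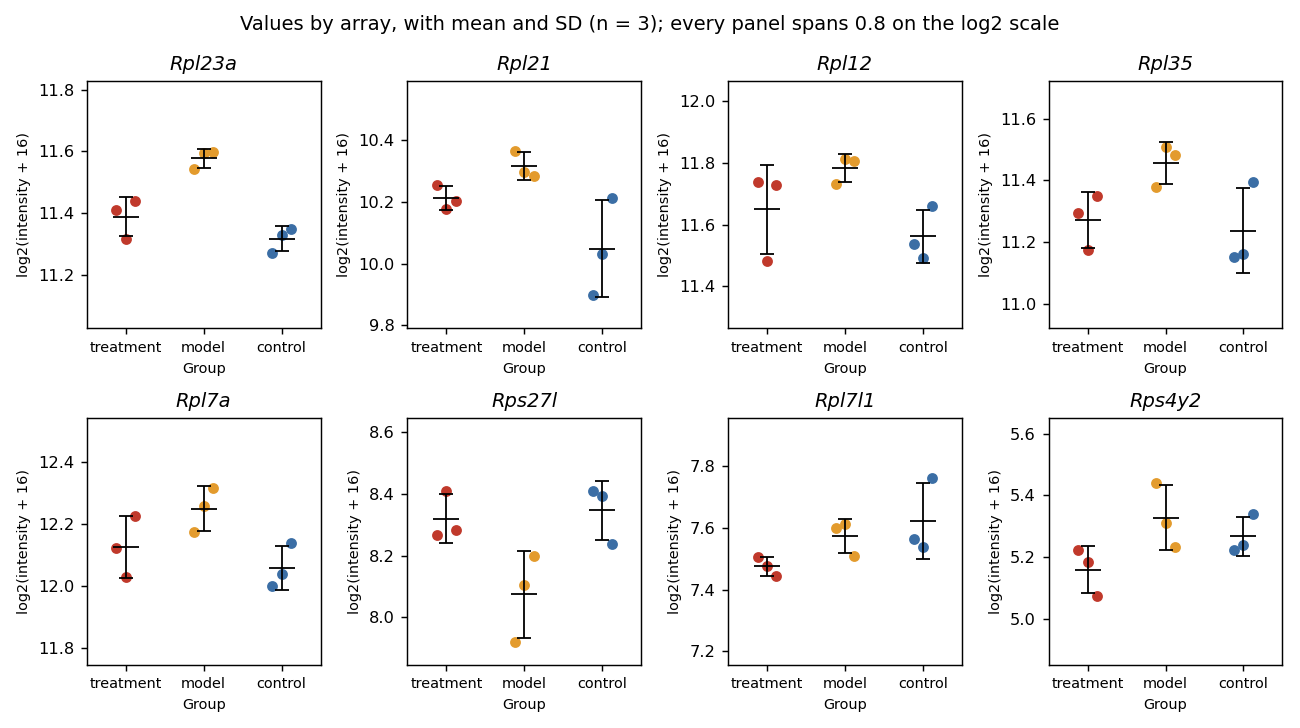
Values of 8 members with the smallest p in a comparison or a paralog name, as log2(intensity + 16) on each array by group (points), with the mean and SD of 3 arrays (bars). Model arrays lie above control arrays for Rpl23a, Rpl21, Rpl12 and Rpl7a and below them for Rps27l, and no treatment group stands apart from control except that of Rpl7l1.

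The second comparison asked what induction with electroacupuncture changed against untreated rats. Treatment and control arrays differed little in ribosomal protein genes, with log2 fold changes from -0.15 to 0.16. They were above 0 for 28 members (65.1%, against 42.2% of all genes tested) and below it for 15. The median was 0.02, against -0.04 over all genes tested. By limma, 0 of 43 passed, where 0.51% of all genes did (0.173% higher and 0.337% lower), and 0 had an unadjusted p under 0.05, against 17.4% of all genes (6.54% higher and 10.8% lower). Groups were separate for 0 members on the higher side (9.4% of all genes) and 1 on the lower side (2.33%, against 13.9%). The smallest adjusted p was 0.397, for Rpl21.

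Rpl21 had 10.26, 10.18 and 10.20 in treatment arrays 31, 32 and 33, against 9.90, 10.03 and 10.21 in control arrays 41, 42 and 43. Control 43 lay inside the treatment range (log2 fold change 0.16, SE 0.10). Rpl23a measured 11.41, 11.32 and 11.44 in treatment arrays, against 11.27, 11.33 and 11.35 in control arrays, a log2 fold change of 0.07. Rpl4 averaged 10.99 ± 0.11 in treatment and 10.88 ± 0.16 in control arrays, Rpl26 11.83 ± 0.10 and 11.75 ± 0.10, and Rpl12 11.65 ± 0.14 and 11.56 ± 0.09 in the same order (SD, n = 3 each). These differences were smaller than or close to the spread within the groups.

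Rpl7l1 was the member whose treatment arrays were all lower, at 7.51, 7.48 and 7.44, against 7.56, 7.54 and 7.76 in control arrays (log2 fold change -0.15, SE 0.09, limma adjusted p = 0.407). This value was -0.05 under quantile normalization and -0.08 without control 43, and a second probe set of the gene gave -0.06. Rps4y2, a paralog of Rps4x measured near the filter threshold, had 5.22, 5.18 and 5.07 in treatment arrays, against 5.22, 5.24 and 5.34 in control arrays (log2 fold change -0.11, limma adjusted p = 0.473). Rps23, a protein of the decoding centre, averaged 12.07 ± 0.11 in treatment and 12.18 ± 0.10 in control arrays, Rps29 12.16 ± 0.04 and 12.22 ± 0.04, and Rpl37a 11.75 ± 0.04 and 11.80 ± 0.05 in the same order. Rps27l, set apart in model arrays, had overlapping groups here, at 8.32 ± 0.08 in treatment and 8.35 ± 0.10 in control arrays (log2 fold change -0.03, SE 0.10).

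The sign of the median in treatment against control was not fixed by these arrays. It was 0.07 without control 43 and 0.07 without treatment 32, and turned to -0.01 without treatment 33 and to -0.01 without control 42. The large subunit had a median of 0.04 with 21 of 28 members positive, and the small subunit one of -0.01 with 7 of 15 positive. The difference between subunits was not tested.

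The third comparison set treatment against model arrays, which differ by electroacupuncture. Here the log2 fold change was below 0 for 39 of 43 members (90.7%, against 61.1% of all genes tested), and its median was -0.10 against -0.05 over all genes. By limma, 0 of 43 passed, and so did 0% of all genes. At an unadjusted p under 0.05 there were 1 higher and 2 lower, against 4.57% and 10.1% of all genes. Groups were separate on the lower side for 11 members (25.6%, against 19.9% of all genes) and on the higher side for 1 (2.33%, against 8.1%).

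Rpl23a had 11.41, 11.32 and 11.44 in treatment arrays, against 11.54, 11.59 and 11.60 in model arrays. All treatment arrays were lower (log2 fold change -0.19, SE 0.07, limma adjusted p = 0.314). Rps28, a small protein of the small subunit, had 11.26, 11.21 and 11.30 in treatment arrays, against 11.38, 11.40 and 11.48 in model arrays (-0.16, limma adjusted p = 0.372). Rpl35 averaged 11.27 ± 0.09 in treatment and 11.46 ± 0.07 in model arrays, and Rpl19 11.64 ± 0.04 in treatment and 11.78 ± 0.07 in model arrays (SD, n = 3 each), both with separate groups. The other members with all treatment arrays lower were Rpl21, Rpl35a, Rpl37a, Rpl7l1, Rps29, Rps3a and Rps4y2, at log2 fold changes of -0.17 (Rps4y2, limma adjusted p = 0.340) to -0.08 (Rps29).

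Rps27l again went against most members. It measured 8.27, 8.41 and 8.28 in treatment arrays, against 7.92, 8.10 and 8.20 in model arrays. Every treatment array was higher than every model array (log2 fold change 0.25, SE 0.10, limma adjusted p = 0.325). The other 3 members with positive values, Rpl41, Rpl39 and Rpl11, had log2 fold changes of 0.03, 0.04 and 0.01.

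The members' median minus that of all genes was -0.05 on the log2 scale, and this gap depended on treatment 32. Without it the median over the members was -0.06, against -0.06 over all genes tested, a difference of -0.002, while 37 of 43 members were still negative. The difference was -0.10 under quantile normalization, -0.09 without a filter and -0.03 with a filter at the 60th percentile. Without any other single array the median over the members was -0.15 to -0.09. Model and treatment arrays were each compared with the same controls in the earlier comparisons, and the opposite signs in model against control and in treatment against model share the model arrays.

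**Figure D4:**
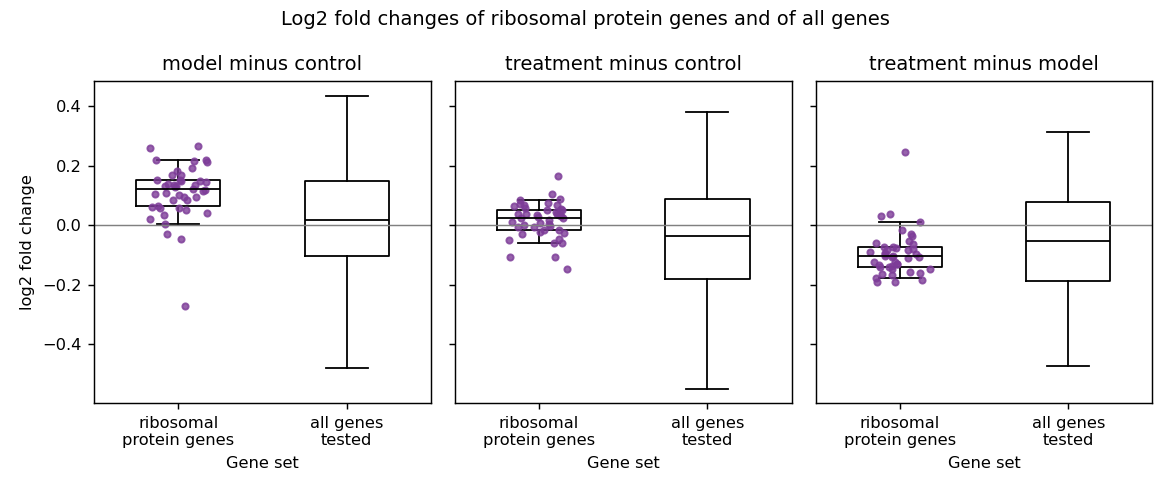
Log2 fold changes in the 3 comparisons for the 43 tested ribosomal protein genes (points, with a box of quartiles and median and whiskers at the 5th and 95th percentiles) and for all 10973 genes tested (box alone). The members' boxes are narrow, with medians of 0.12, 0.02 and -0.10, and the single point far from the rest in model against control and in treatment against model is Rps27l.

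The arrays could bound the size of the differences. The 95% interval of limma lay within 1.5-fold either way for 43 of 43 members in each of the 3 comparisons, against 70.2%, 71.1% and 71.5% of all genes tested in model against control, treatment against control and treatment against model. Narrow intervals were not particular to the members. In model against control the share was 97.5% of ribosome biogenesis genes, 93.2% of mitochondrial ribosomal protein genes and 89.2% of initiation factors. It was 81.2% of elongation and release factors and 69.2% of ribosome partners. The farthest bounds were 0.706-fold (Rps27l) and 1.402-fold (Rps15) in model against control, 0.786-fold (Rpl14) and 1.302-fold (Rpl21) in treatment against control, and 0.723-fold (Rpl14) and 1.389-fold (Rps27l) in treatment against model. These bounds are on the log2(intensity + 16) scale, which for the dimmest members understates a change. Whether the brightest probe sets, which include most members, understate changes too was not tested, so the bounds hold for measured intensities.

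**Figure D5:**
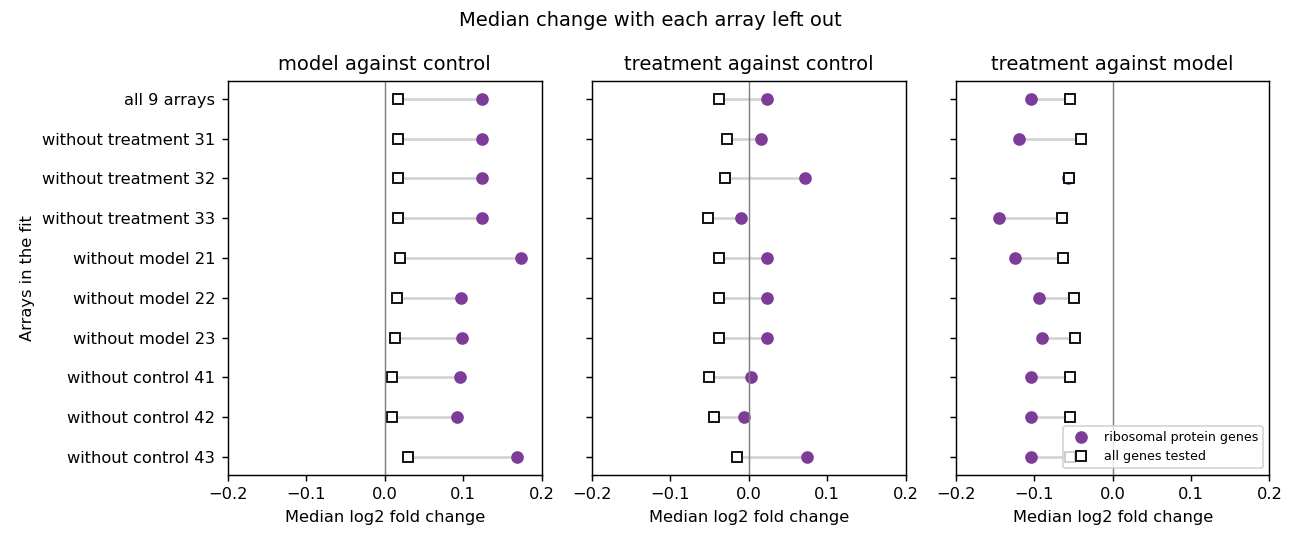
Median log2 fold change over the 43 ribosomal protein genes (filled circles) and over all genes tested (open squares) in the 3 comparisons, with all 9 arrays in the fit and with each array left out. In model against control the members stay above all genes, from 0.09 to 0.17, whereas in treatment against model both medians are -0.06 without treatment 32.

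The members were also divided by the tract at the start. In model against control the median was 0.13 over the 11 tested members with a tract at the first base and 0.11 over the 28 without, and in treatment against model it was -0.11 and -0.10 in the same order. Counting tracts within 10 bases, the medians were 0.13 (27 members) and 0.10 (12 members) in model against control and -0.11 and -0.08 in treatment against model. The difference between these sets was not tested.

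Other genes of the translation machinery had medians nearer to 0 or below it in model against control, and their difference from the ribosomal protein genes was not tested. Over all genes tested, 53.5% were positive in model against control and 42.2% in treatment against control. In treatment against model 38.9% were, and the medians over all genes were 0.02, -0.04 and -0.05 in this order. Of 16 measured elongation and release factors, 9 were positive and 7 negative in model against control (median 0.05), and 0 passed. Eef1d, a subunit of the exchange factor of elongation factor 1, averaged 10.07 ± 0.05 in model and 9.77 ± 0.12 in control arrays (SD, n = 3 each; log2 fold change 0.30, SE 0.09, limma adjusted p = 0.271). In treatment against model it differed by -0.24 (limma adjusted p = 0.293). Of 37 initiation factors, 17 were positive and 20 negative in model against control (median 0.00), and 0 passed. Eif3c had the smallest p and was lower, at -0.32 (limma adjusted p = 0.338). Next were Eif4b, a helicase cofactor whose mRNA has the tract in mammals, at 0.36 and the cap-binding protein gene Eif4e at -0.27.

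Among 79 ribosome biogenesis genes, 36 were positive in model against control (median -0.01) and 36 in treatment against control (median -0.02), and 0 passed in any of the 3 comparisons. Ddx52, an RNA helicase of that pathway, averaged 6.08 ± 0.10 in treatment and 5.38 ± 0.05 in control arrays (log2 fold change 0.71, SE 0.13, limma adjusted p = 0.0628), and Rcl1, a factor of small-subunit assembly, 8.16 ± 0.31 in treatment and 6.57 ± 0.16 in control arrays (1.59, SE 0.32, limma adjusted p = 0.0818). Rcl1 averaged 7.35 ± 0.70 in model arrays, also above control (0.79, limma adjusted p = 0.382). Imp3, next by p in treatment against control, was lower there (-0.25, limma adjusted p = 0.236). All SDs are over 3 arrays. Of 36 genes for polymerases I and III, 0 passed in any comparison, with medians of 0.00 in model against control and -0.05 in treatment against model. Of 73 mitochondrial ribosomal protein genes, 30 were positive and 43 negative in model against control (median -0.04), and 0 passed in any comparison. In treatment against control 30 were positive and 43 negative as well. The smallest p there were those of Mrps31 (log2 fold change -0.36) and Mrpl41 (-0.33), both lower (limma adjusted p = 0.118 each). Mrps6 came next and was higher, at 10.36 ± 0.47 in treatment and 8.94 ± 0.42 in control arrays (log2 fold change 1.42, limma adjusted p = 0.17).

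Ribosome partners, among them protein targeting genes of the endoplasmic reticulum, had 8 of 13 members negative in model against control (median -0.15), with the smallest p for the translocon subunit gene Sec61g at -0.39 (limma adjusted p = 0.266) and the lowest value for its partner Sec61a1 at -0.41 (limma adjusted p = 0.432), and 0 passed in any comparison. Of 27 genes that control ribosomal protein translation, such as mTOR pathway and Myc family genes, 0 passed in any comparison. In treatment against model their median was -0.16 with 19 negative (70.4%), against -0.05 and 61.1% over all genes tested. Eif4ebp2, an inhibitor of cap-dependent initiation, averaged 6.91 ± 0.13 in treatment and 7.20 ± 0.08 in model arrays (-0.29, limma adjusted p = 0.286). Its control arrays averaged 7.31 ± 0.12, so that treatment against control differed by more (-0.40, limma adjusted p = 0.124). Mycn, a Myc family transcription factor, went the other way, at 7.71 ± 0.36 in treatment and 6.12 ± 0.83 in model arrays (1.59, limma adjusted p = 0.286), the highest value of the list. Sesn1, a p53 target that restrains mTOR signalling, averaged 7.04 ± 0.10 in model and 6.37 ± 0.45 in control arrays (0.68, limma adjusted p = 0.308).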

How the data were processed

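The deposited values were normalized intensities on a linear scale, 1 per probe set and array. The submitters' processing notes name MAS5, an Affymetrix probe summary, without its settings. Values were taken as log2(intensity + 16). Of 31042 probe sets other than 57 controls, 20826 had 1 symbol, and 20758 of these matched a RefSeq gene. A single limma model (version 3.58.1, R 4.3.3) over the 9 arrays, with a variance trend and 6 residual degrees of freedom, gave the 3 two-sided comparisons, with Benjamini-Hochberg adjustment over 10973 genes. The number of arrays, 3 per group, limits the precision. The fit was tested on simulated data. Named members were those with the 5 smallest p per comparison and direction, paralogs, several members of known extra roles, the 3 with the lowest and highest residual SD, and those failing the filter, and of each pathway list some of the 3 with the smallest p. Members with separate groups were named after their values were seen. Rps19, Rplp1, Rplp2 and Rps27a had no single-symbol probe set. Members and lists were chosen with earlier results of these data known. Alternatives are in the closing section. Python 3.11.15 with matplotlib 3.10.9 drew the figures.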

Additional observations from a re-analysis of the deposited data

How the results depend on the processing

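The count of ribosomal protein genes that passed was 0 in each comparison under every alternative of added constant, normalization, filter, variance model, probe set choice and replicate block, and 0 to 1 with single arrays left out in model against control. The median over the members with an array left out was 0.0916 to 0.174 in model against control, -0.0095 to 0.0746 in treatment against control and -0.145 to -0.0573 in treatment against model. Under quantile normalization it was 0.0904, 0.0127 and -0.0902 in the same order, and all genes then had medians of 0.009, 0.014 and 0.0086, so that in treatment against control the members no longer lay above all genes (difference -0.0013, against 0.0609). The number of members with an interval within 1.5-fold was 42 to 43 with an array left out in model against control and 43 in the other comparisons, and with a filter at the 60th percentile 41 of 41.

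Counts over all genes moved more. In model against control 1 gene passed without a filter and 1 with the 6 compared arrays alone, against 3, and 0 to 1384 with an array left out. In treatment against control the count was 56 (19 higher, 37 lower), 55 under quantile normalization (27 higher, 28 lower), 27 with a replicate block on the final digit of the array names, which the labels do not call a pairing, and 0 to 720 with an array left out. In treatment against model it was 0 to 3. With an array left out, Rpl18 ran from -0.0999 to 0.0554 and Rpl7l1 from -0.0895 to 0.0229 in model against control, and Rpl11 from -0.105 to 0.0747 and Rpl39 from -0.0424 to 0.105 in treatment against model. The cause of these moves was not tested. Signal over background is not known for these intensities, which limits the values of the dimmest members.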

Other observations

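Of the probe sets that carry a ribosomal protein symbol, 36 list several symbols and were left out of the comparisons. They were added after the data were seen. Of these, 35 passed the filter, with 9-array means of 6.92 to 12.11 (log2 scale). In model against control 33 were positive and 2 negative (median 0.12, against 0.02 over all 19326 probe sets that passed), in treatment against control 25 and 10 (median 0.03), and in treatment against model 2 and 33 (median -0.08, against -0.04 over all). By limma 0 of the 35 passed in each comparison, where 0.0259%, 0.419% and 0% of all probe sets did in model against control, treatment against control and treatment against model. In the same order 3, 0 and 0 of the 35 had an unadjusted p under 0.05, against 12.3%, 16.6% and 15.7% of all.

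Where a member had several probe sets, they did not always move alike. The bright probe sets of Rpl7 and Rpl14 gave log2 fold changes of 0.14 and 0.12 in model against control, and their dimmer ones (means of 7.198 and 5.07) gave -0.07 and -0.06. The 3 probe sets of Rpsa gave 0.09, 0.12 and 0.05 in model against control and -0.08, -0.11 and 0.05 in treatment against model. A dim second probe set of Rps24, with a mean of 6.21, gave 0.26 in model and in treatment arrays alike against control, where the bright one gave 0.13 and 0.00. Which transcripts the dim probe sets read is not stated in the platform annotation used.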
